A study of Homo sapiens with 8 samples.

Results

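Shared regions are the stretches of the control H3K36me2 map that were called again in both KDM2A knockdown maps. A control region on chromosomes 1 to 22 was counted as shared if at least 1 bp of it lay inside a region of the sh1 list and at least 1 bp inside a region of the sh4 list. Of 19017 control regions, 646 met this rule (3.40%), and the other 18371 are called the remaining regions below. The regions were thus chosen by their measured calls in the 3 libraries, and their overlaps and number are a description. The chromatin immunoprecipitation (ChIP) libraries came from neural progenitors derived from the human embryonic stem cell line H9, which is long established. The stem cells were transduced with lentivirus at a multiplicity of infection of 20 and selected with puromycin at 1 ug/ml for 48 h. After that they were induced to progenitors. This was done in the control (NC) as in the groups with the hairpins sh1 and sh4 against KDM2A. The antibody against H3K36me2 was the same in each. KDM2A was also precipitated, from control cells. Each group holds 1 library, so no value has a spread between cultures and no test between conditions was possible. Intervals given below are 95% intervals for counting error, which treat regions or reads as independent. Peak lists carry no RNA, so the progenitor identity and the degree of knockdown were not checked here.

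H3K36me2 is dimethylation of lysine 36 of histone H3. It is laid down by the NSD enzymes and ASH1L, and KDM2A and KDM2B remove it. The mark forms broad domains over gene bodies and the sequence between genes, recruits the DNA methyltransferase DNMT3A, and hinders Polycomb from placing H3K27 methylation. It is usually low at active CpG-rich promoters, where KDM2A binds unmethylated CpG through a zinc finger.

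Annotated gene starts that lay inside a shared region were mostly those of long noncoding RNA (lncRNA) genes. Of 25 such starts, 22 belonged to lncRNA genes (88.0%, 68.8 to 97.5) and 3 to protein-coding genes. In the remaining regions 419 of 713 starts were of lncRNA genes (58.8%, 55.1 to 62.4). Per Mb of region, protein-coding starts numbered 0.702 in shared regions (0.145 to 2.05) and 3.13 in the remaining regions (2.78 to 3.51). For lncRNA starts the values were 5.15 (3.23 to 7.80) and 4.46 (4.04 to 4.90), whose intervals overlap.

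The 250 bases before the start are shown for the 6 genes whose shared regions held the longest stretch called in all 3 libraries, to show what kind of gene start lay in them. Of these, the starts of MYOSLID and LOC105377483 were themselves called in all 3. They are read 5′ to 3′ on the gene's strand from RefSeq (GRCh38.p14), with CpG dinucleotides in capitals.
LINC01614: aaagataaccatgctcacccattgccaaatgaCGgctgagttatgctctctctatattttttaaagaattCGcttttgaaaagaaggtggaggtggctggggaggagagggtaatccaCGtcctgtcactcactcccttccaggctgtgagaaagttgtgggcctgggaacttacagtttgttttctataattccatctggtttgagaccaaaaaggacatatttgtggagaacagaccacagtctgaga
MYOSLID: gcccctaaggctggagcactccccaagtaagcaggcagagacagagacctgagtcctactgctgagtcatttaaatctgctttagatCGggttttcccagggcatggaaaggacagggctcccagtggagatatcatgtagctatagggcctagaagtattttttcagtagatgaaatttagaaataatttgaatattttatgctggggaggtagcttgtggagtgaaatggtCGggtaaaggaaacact
LOC105377483: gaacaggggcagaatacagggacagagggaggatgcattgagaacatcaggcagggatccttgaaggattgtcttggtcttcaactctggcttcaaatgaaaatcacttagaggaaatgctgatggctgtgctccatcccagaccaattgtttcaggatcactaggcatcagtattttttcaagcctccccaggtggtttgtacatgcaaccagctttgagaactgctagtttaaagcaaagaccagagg
ARHGAP18: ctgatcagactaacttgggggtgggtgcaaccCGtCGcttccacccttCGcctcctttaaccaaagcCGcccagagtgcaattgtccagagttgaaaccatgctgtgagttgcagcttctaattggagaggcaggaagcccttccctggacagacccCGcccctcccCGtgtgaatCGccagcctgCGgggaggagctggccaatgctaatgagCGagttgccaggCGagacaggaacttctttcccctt
LINC01698: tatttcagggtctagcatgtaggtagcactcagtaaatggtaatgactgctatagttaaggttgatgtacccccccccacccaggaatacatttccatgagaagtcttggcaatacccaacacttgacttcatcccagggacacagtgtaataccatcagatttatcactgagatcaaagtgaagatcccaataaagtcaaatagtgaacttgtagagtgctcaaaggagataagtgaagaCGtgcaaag
LOC124900807: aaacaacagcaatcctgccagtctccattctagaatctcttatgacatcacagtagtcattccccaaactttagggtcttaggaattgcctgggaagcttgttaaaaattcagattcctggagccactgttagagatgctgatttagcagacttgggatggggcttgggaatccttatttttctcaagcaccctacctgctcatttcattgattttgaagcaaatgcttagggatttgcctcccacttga
LINC01614 (chr2:215717793-215718042, plus strand) and MYOSLID (chr2:207239561-207239810, plus strand), a lncRNA of smooth muscle cells, hold 3 and 2 CpG. LOC105377483 (chr4:148680650-148680899, minus strand) and LOC124900807 (chr4:168616615-168616864, minus strand) hold 0, and LINC01698 (chr1:209371805-209372054, plus strand) holds 1. ARHGAP18 (chr6:129710178-129710427, minus strand), which encodes a GTPase-activating protein, is the protein-coding gene of the group and holds 10. The median number of CpG before a lncRNA start was 1 in shared regions (22 starts), 2 in the remaining regions and 4 over all 12569 lncRNA starts in the table. At least 1 CpG stood before 14 of the 22 lncRNA starts in shared regions (63.6%), and before 89.0% of all lncRNA starts. The other protein-coding starts in shared regions were those of PHLDB2, a cell cortex protein gene, with 1 CpG, and of CFAP91, a gene of cilia and flagella, with 10. The median was 10 for these 3 starts, 5 for the 294 protein-coding starts in remaining regions and 17 for all 21156 protein-coding starts. At 4 of the 25 starts the start base itself lay in sequence called in all 3 libraries, namely at MYOSLID, LOC105377483, LINC01217 and PHLDB2.

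The control list held a median of 163 IP and 99 input reads per region, the sh1 list 151 and 89, and the sh4 list 156 and 92. Shared regions held a median of 208 IP reads (197 to 221) and 130.5 input reads (123 to 142), against 161 and 98 in the remaining regions. Shared regions thus carried more reads each, and they were wider. Per kb they held 23.6 input reads (23.4 to 23.9), against 23.3 (23.2 to 23.4). The order changed with width. In each width class up to 6 kb the median was higher in shared regions, as at over 4 to 6 kb (22.9 against 22.7). In each class above 6 kb it was lower, as over 12 kb (25.6 against 27.3).

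Overlap with 1 hairpin went with overlap with the other. Of control regions that met sh1, 22.1% also met sh4 (20.6 to 23.6), and of those that did not meet sh1, 12.6% met sh4 (12.1 to 13.1). In all, 2923 control regions overlapped sh1 (15.4%) and 2668 overlapped sh4 (14.0%). Neither hairpin overlapped 14072 of them (74.0%). These shares are what the rule is made of and are given as a description.

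Shared regions were wider than the remaining ones, with a median of 5600 bp against 4400 bp. The 10th and 90th percentiles were 3000 and 11400 bp in shared regions and 2400 and 8600 bp in the remaining regions. A wide region has more room to meet another, so width is tied to the rule. The share of control regions that were shared was 0.985% up to 2 kb (0.451 to 1.86), 3.31% at over 4 to 6 kb (2.86 to 3.82) and 8.49% over 12 kb (6.44 to 10.9). Overlap with sh1 rose with width to 27.4% over 12 kb, and overlap with sh4 was 18.6% at over 8 to 12 kb and 17.6% over 12 kb. Within each width class, control regions that met sh1 met sh4 more often than those that did not, from 11.0% against 9.38% up to 2 kb to 31.0% against 12.6% over 12 kb.

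**Figure D1:**
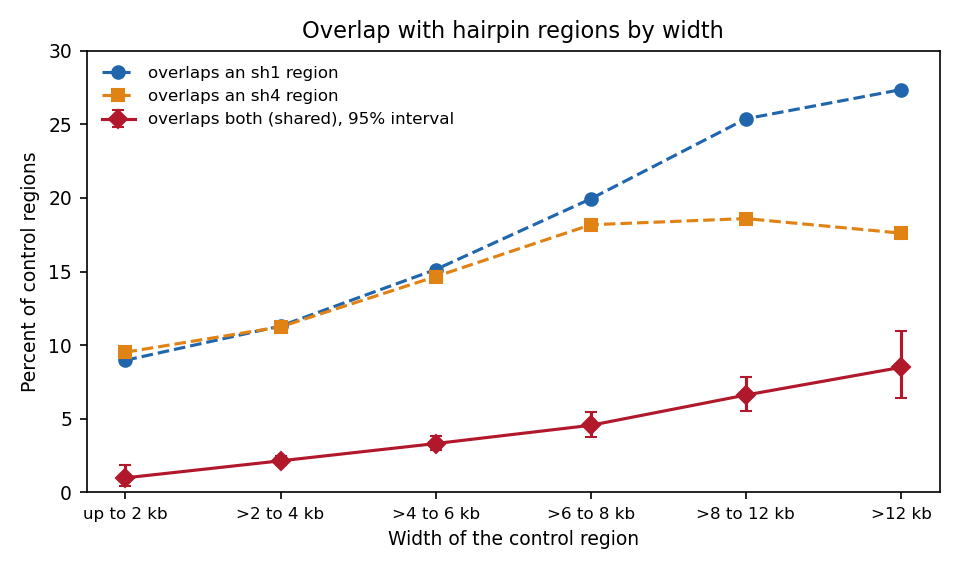
Percent of control H3K36me2 regions (vertical axis) that overlap an sh1 region (circles), an sh4 region (squares) or both (diamonds, with 95% counting intervals), by width of the control region (horizontal axis). The share that overlaps both climbs from 0.985% up to 2 kb to 8.49% over 12 kb.

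The regions coincided in part and seldom edge to edge. The median shared region lay inside sh1 regions over 58.3% of its length and inside sh4 regions over 60%. Of the 646, 249 were at least 50% inside both (38.5%) and 41 lay fully inside both. Both edges lay within 1 kb of those of the sh1 region in 69 shared regions, of the sh4 region in 61, and of both in 13. Sequence called in all 3 libraries at once came to 1.36 Mb in 582 stretches, 31.7% of the length of the shared regions. These stretches had a median length of 2200 bp and reached 10600 bp. In 93 shared regions (14.4%) sh1 and sh4 met different parts of the control region, so that 0 bp was called in all 3.

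At the threshold itself, overlaps were as short as the 200 bp grid of the lists. In 25 shared regions (3.87%) the shorter overlap was 200 bp, among them those in the potassium channel subunit gene KCNAB1 (fold 1.71, control) and in FNDC3B (fold 1.31). Just outside were control regions that abutted a region of the missing hairpin with a gap of 0 bp, as in the dynamin gene DNM3 (fold 1.43, sh1 missing) and in GPD2 (fold 1.59, sh1 missing). Of the 4299 control regions that met 1 hairpin, 184 had a region of the other within 1000 bp and 758 within 5000 bp.

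The longest stretches called in all 3 libraries lay mostly outside protein-coding genes, as did shared regions as a whole, of which 35.6% touched such a gene. The first, of 10600 bp, was in a region on chromosome 3 (182593801 to 182605000), 188504 bp from ATP11B, which encodes a phospholipid flippase. Its fold, the ratio of IP to input, was 1.37 in the control (1.18 to 1.59; 418 IP and 301 input reads), 1.64 in sh1 (1.43 to 1.90) and 1.29 in sh4 (1.16 to 1.45). The value was highest in sh1, and the 3 intervals overlapped. The second, of 10000 bp, lay on chromosome 5 (124297601 to 124307600) over the lncRNA gene LINC01170, 329315 bp from the zinc finger gene ZNF608. Its folds were 1.41, 1.25 and 1.26 in control, sh1 and sh4, highest in the control. These folds are over each library's own region. In control, sh1 and sh4 the first spanned 11200, 12400 and 21000 bp, and the second 10000, 16600 and 14400 bp.

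Inside genes, LPP, which encodes a focal adhesion protein, held a stretch of 9400 bp (region on chromosome 3, 188684201 to 188695400). Its folds were 1.30, 1.59 and 1.32 in control, sh1 and sh4. ME3, the gene of a mitochondrial malic enzyme, held one of 8600 bp on chromosome 11 (86490801 to 86500400), with folds of 1.40, 1.21 and 1.38. LPP was highest in sh1 and ME3 lowest in sh1. Each fold is over that library's own region, and these differed in width. In control, sh1 and sh4 they spanned 11200, 11400 and 17800 bp at LPP, and 9600, 14200 and 6400 bp at ME3. The part of width in the order of the libraries was not tested. SLC9C2, a sodium-proton exchanger family gene, held 7800 bp on chromosome 1 (173548201 to 173556800), with folds of 1.45, 1.42 and 1.23. It lies beyond 140 Mb, where 24.9% of control regions overlapped sh4, against 14.4% on the rest of that chromosome. The other 5 of the first 10 lay outside protein-coding genes, nearest to ITGB6, APC, TBL1XR1, MREG and KLF7, at distances of 17129 to 546201 bp. In all 10 regions the counting intervals of the 3 libraries overlapped.

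**Figure D2:**
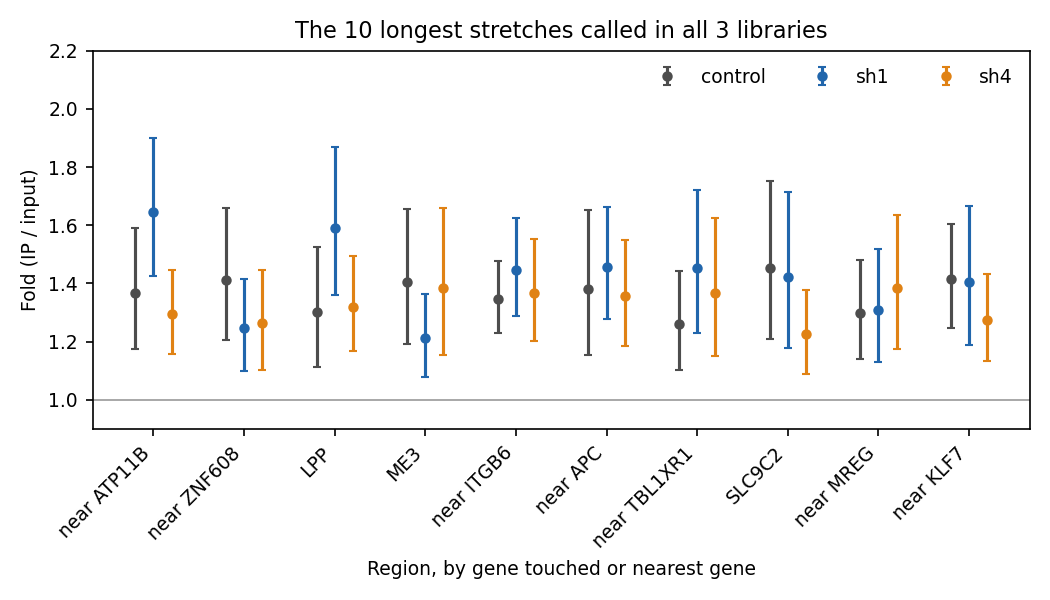
Deposited fold (IP over input, vertical axis) with 95% counting intervals in the control, sh1 and sh4 lists, for the 10 shared regions with the longest stretch called in all 3 libraries, named by the gene touched or the nearest gene (horizontal axis). The intervals of the 3 libraries overlap at each region, and the library with the highest fold changes from region to region. Each fold is over that library's own region, and the widths of these differ.

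The widest shared region, 28600 bp on chromosome 2 (160217401 to 160246000), lay 17129 bp from ITGB6, an integrin gene. It had folds of 1.35, 1.45 and 1.37 in control, sh1 and sh4, and 8400 bp of it were called in all 3. The next widest lay 113627 bp from NFIA, a transcription factor gene of glial development (21000 bp, fold 1.38 in the control), and in DOCK2, a guanine nucleotide exchange factor gene of blood cells (20600 bp, fold 1.27). In both of these 0 bp was called in all 3 libraries, since the hairpins met separate parts. Of the 10 widest, 8 lay outside protein-coding genes, and of all shared regions 35.6% touched one.

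The folds of shared regions were modest. Their median in the control list was 1.53 (1.52 to 1.55), against 1.60 in the remaining regions (1.59 to 1.60). Wider regions had lower folds in both sets. Within the width classes the median was higher in shared regions in 5 of 6, as over 12 kb (1.33 against 1.30) and over 6 to 8 kb (1.48 against 1.45), and lower at over 4 to 6 kb (1.546 against 1.550). The hairpin regions that met them had a median fold of 1.61 in sh1 (1.58 to 1.63) and 1.57 in sh4 (1.55 to 1.59). Over whole lists, the medians were 1.59 in the control and 1.65 in each hairpin. Among shared regions the fold was highest in sh1 for 279 regions, in sh4 for 205 and in the control for 162. Each library's own region was used, and these differ in extent. Across the 646 regions the rank correlation of fold was 0.14 between control and sh1, 0.18 between control and sh4 and 0.19 between sh1 and sh4, and these values share the effect of width.

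The shared regions with the highest folds in all 3 libraries lay in repeated sequence. The highest was a region of 400 bp on chromosome 1 (631001 to 631400) over MTCO1P12, a nuclear pseudogene copy of a mitochondrial gene, with deposited folds of 755.7 in the control, 676.2 in sh4 and 5.999 in sh1, where the region was wider (2600 bp). The next lay near the end of chromosome 18 (108601 to 112400) over the pseudogene ROCK1P1, with folds of 4.57, 3.06 and 3.10. The third was at DUX4, a gene of a repeat array at the end of chromosome 4 (190176601 to 190180000), with folds of 2.91 (2.57 to 3.29), 2.70 and 2.88. The DUX4 region held 102.4 input reads per kb in the control, against the median of 23.6, and it alone among the 644 shared regions with recovered counts exceeded 60. Reads of such copies cannot be placed for certain, and how the authors' alignment handled them is not given in the sources used here.

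Below these, the highest smallest folds were near TMEM174 on chromosome 5 (2.16, 2.21 and 1.96 in control, sh1 and sh4), near ATP11B (2.43, 1.98 and 1.95) and 9117 bp from ERBB4, a neuregulin receptor gene (2.01, 2.05 and 1.90). They held 17.5, 18.9 and 17.6 input reads per kb in the control. Inside genes, PDZRN4 had folds of 1.86, 1.99 and 1.95, and MAPRE2, which encodes a microtubule end-binding protein, had 1.87, 1.85 and 1.85. These 5 regions were 1800 to 4400 bp wide, narrower than the median shared region.

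Shared regions were spread unevenly over the chromosomes. Chromosomes 1 to 6 held 438 of them (67.8%, 64.0 to 71.4), against 53.9% of the remaining regions (53.2 to 54.6). Chromosomes 15 to 22 held 22 (3.41%, 2.15 to 5.11), against 10.1% of the remaining regions. This grouping of chromosomes was made after the values were seen. As a share of the control regions on each chromosome, shared regions made up 5.29% on chromosome 5 (4.23 to 6.52; 82 regions) and 4.70% on chromosome 3 (3.78 to 5.77; 87 regions). The share was 1.54% on chromosome 11 (0.797 to 2.67) and 0.380% on chromosome 17 (0.00963 to 2.10), where 1 of 263 was shared. On the gene-dense chromosomes 19 and 22, 0 of 34 and 0 of 48 were shared, which allows shares of up to 8.82% and 6.25%. Chromosome 1 beyond 140 Mb, where 24.9% of control regions overlapped sh4 against 14.4% on the rest of the chromosome, held 26 shared of 708 control regions (3.67%, 2.41 to 5.33), and the rest of the chromosome 3.95% (2.68 to 5.59).

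**Figure D3:**
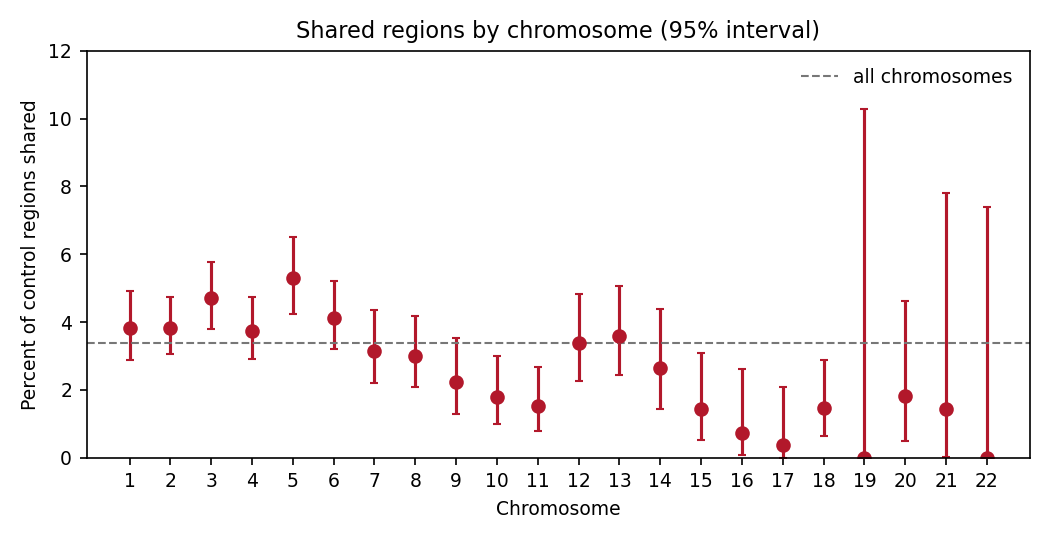
Percent of the control H3K36me2 regions on each chromosome (horizontal axis) that were shared (vertical axis), with 95% counting intervals; the dashed line is the value over all chromosomes, 3.40%. The intervals of chromosomes 3 and 5 lie wholly above the line and those of chromosomes 10, 11, 15, 16, 17 and 18 wholly below it, and the intervals of chromosomes 19, 21 and 22 are wide because they hold few control regions.

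Shared regions lay in gene-poor sequence more often than the remaining control regions. In windows of 1 Mb with fewer than 5 protein-coding genes stood 441 of them (68.3%, 64.5 to 71.8), against 56.1% of the remaining regions (55.3 to 56.8). In windows with 10 or more genes stood 32 (4.95%, 3.41 to 6.92), against 13.4% (13.0 to 13.9). Read the other way, 4.11% of control regions in windows with fewer than 5 genes were shared (3.74 to 4.50) and 1.28% in windows with 10 or more (0.876 to 1.80). The contrast was smaller from the hairpin lists, whose other regions lay more often in gene-poor windows. Taken from the sh1 list, 67.6% of its shared regions and 63.2% of its others stood in such windows, and from the sh4 list 67.6% and 66.4%. The ratio was 1.07 from sh1 (1.01 to 1.13) and 1.02 from sh4 (0.963 to 1.07), where the interval included 1.

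Protein-coding genes were touched by 230 shared regions (35.6%, 31.9 to 39.4) and by 45.3% of the remaining regions (44.6 to 46.0). The share was lower in shared regions in each width class, from 33.3% against 44.0% up to 2 kb to 31.5% against 56.0% over 12 kb, and the intervals overlapped in the classes up to 2 kb, over 2 to 4 kb and over 6 to 8 kb. It was also lower in windows with fewer than 5 genes (30.6% against 36.2%) and with 5 to 9 genes (41.6% against 54.1%), but in windows with 10 or more genes it was 71.9% (53.3 to 86.3) against 63.2%. A lncRNA gene was touched by 29.1% of shared regions (25.6 to 32.8) and 22.1% of the remaining regions (21.5 to 22.7). Neither kind of gene was touched by 37.9% and 37.4%. More than 100 kb from any protein-coding gene lay 39.0% of shared regions (35.2 to 42.9) and 27.7% of the remaining ones, while over 500 kb away the shares were 6.81% (4.99 to 9.04) and 6.73%.

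**Figure D4:**
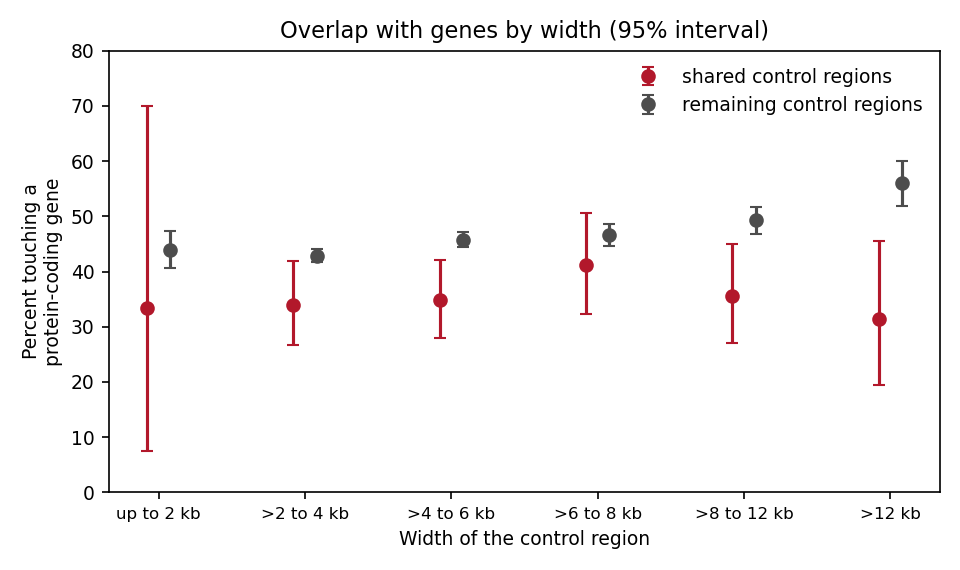
Percent of regions that touch a protein-coding gene (vertical axis) by width of the control region (horizontal axis), for shared and remaining control regions, with 95% counting intervals. Shared regions lie below the remaining ones in each class, with the widest gap over 12 kb, at 31.5% against 56.0%.

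Genes of 200 kb or more took most of the shared regions that met a gene. Counted once per gene touched, 92 of 234 fell at 200 to 500 kb and 81 at 500 kb or more. For all control regions the counts were 2744 and 2059 of 8768. Shared regions touched 198 of 18973 protein-coding genes (1.04%), with a median length of 355 kb (301 to 410), and control regions as a whole touched 3845 (20.3%). The median length was 117 kb for genes touched by remaining regions and 24.8 kb for all protein-coding genes. These medians count each touched gene once, over 198 genes from 646 shared regions and 3829 from 18371 remaining ones. With numbers of regions so unlike, the medians are not directly comparable. Genes of 500 kb or more were touched in 63 of 303 cases (20.8%), and genes under 50 kb in 7 of 12973 (0.0540%). Control regions as a whole also touched long genes more often, 279 of the 303 (92.1%) against 880 of the 12973 (6.78%). A long gene offers more sequence to meet, so the control regions inside genes were also compared. Of control regions that touched genes under 50 kb, 0.725% were shared (0.292 to 1.49), and at 50 to 200 kb 1.80% (1.36 to 2.34). The share was 3.35% at 200 to 500 kb (2.71 to 4.10) and 3.93% at 500 kb or more (3.14 to 4.87). Both of these intervals contain the 3.40% over all control regions.

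Most touched genes, 169 of 198, held 1 shared region, 22 held 2 and 7 held 3. LAMA4, which encodes a laminin chain of basement membranes, is the shortest of the 7, at 147 kb, and 3 of its 5 control regions were shared. The first of these (chromosome 6, 112173601 to 112180000) had folds of 1.45, 1.33 and 1.47 in control, sh1 and sh4, the second 2.11, 1.33 and 1.64, and the third 1.39, 1.47 and 1.51. The first and second met the same sh1 region. The other genes with 3 were TENM2, a teneurin gene of synaptic adhesion (3 of 27 control regions), VEPH1 (3 of 8), the neuronal calcium sensor gene NCALD (3 of 14), MACROD2 (3 of 27), SLC35F1 (3 of 15) and DAB1, an adaptor of reelin signalling (3 of 22). Genes with 2 that are known in the nervous system were SOX5, UNC5D, ANKS1B, CELF2 and PDE4D, and FHIT, a large gene at a known fragile site, also held 2.

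Over the gene lists, shared regions touched few members. Of 39 synaptic and cell adhesion genes 7 were touched (median length 1103 kb), by 7 of the 287 control regions in the list (2.44%), beside 2.67% for protein-coding genes as a whole. They included the neurexin gene NRXN3, the neuroligin gene NLGN1, ERBB4, DLG2 and the catenin genes CTNNA2 and CTNNA3. The region in NLGN1 (chromosome 3, 174214401 to 174225800) had folds of 1.40, 1.95 and 1.49 in control, sh1 and sh4, highest in sh1, and that in ERBB4 had 1.64, 1.64 and 1.66, nearly level. The axon guidance list had 2 of 29 touched, the netrin receptor genes UNC5C and UNC5D, by 3 of 109 control regions (2.75%).

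Of 66 genes of MAPK signalling, which the study's title names, 1 was touched, MAPK10, the neuronal JNK kinase gene (folds 1.69, 2.14 and 1.85). In this list 27 genes held a control region, and 1 of the 60 control regions was shared (1.67%). That is near the 2.67% for protein-coding genes as a whole. Of 34 neuron differentiation genes the 1 touched was the transcription factor gene EBF1 (folds 1.88, 1.47 and 1.54, overlap with sh4 of 200 bp). Its region was 1 of 16 control regions in the list. Of 35 Wnt, Notch and Hedgehog genes the 1 touched was RBPJ, the Notch effector (2.14, 1.80 and 1.71), by 1 of 26 control regions. Of 28 blood, liver and muscle genes it was PTPRC, the leukocyte antigen gene (1.74, 2.89 and 1.82), which lies on chromosome 1 beyond 140 Mb. That list held 3 control regions. Of 505 ZNF zinc finger genes the 1 touched was ZNF827 (1.35, 1.34 and 1.42, with 6200 bp called in all 3), by 1 of 70 control regions. No shared region touched a gene of the neural progenitor (23 genes, 11 control regions), growth factor (30, 49), H3K36 enzyme and reader (26, 13) or Polycomb (25, 14) lists. The same held for the neural crest (16, 5), astrocyte and oligodendrocyte (19, 16), cell cycle (32, 11) and mesoderm and endoderm (29, 1) lists. It also held for the olfactory receptors (388, 3) and the clustered protocadherins (53, 30). Beside the 2.67% for protein-coding genes as a whole, each list holds too few control regions to set 0 apart from that share. The pluripotency, HOX and ribosomal protein lists held 0 control regions. The olfactory receptor list, the longest of these, held 3 control regions, of which 0 were shared, and its genes have a median length of 3.04 kb.

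Shared regions lay close to other shared regions. Another shared region stood within 100 kb of 152 of them (23.5%, 20.3 to 27.0), while 9.29% of the remaining control regions had a shared region within that distance (8.88 to 9.72), a ratio of 2.53. Within 10 kb the shares were 7.74% and 1.30%, within 500 kb 55.9% and 29.5%, and within 2000 kb 82.2% and 59.99%. The median distance to the nearest shared region was 371 kb from a shared region and 1321 kb from a remaining one. The same hairpin region was the main partner of more than 1 shared region for 18 shared regions in sh1 and 20 in sh4, and without these the share within 100 kb was 19.7% against 9.10%.

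**Figure D5:**
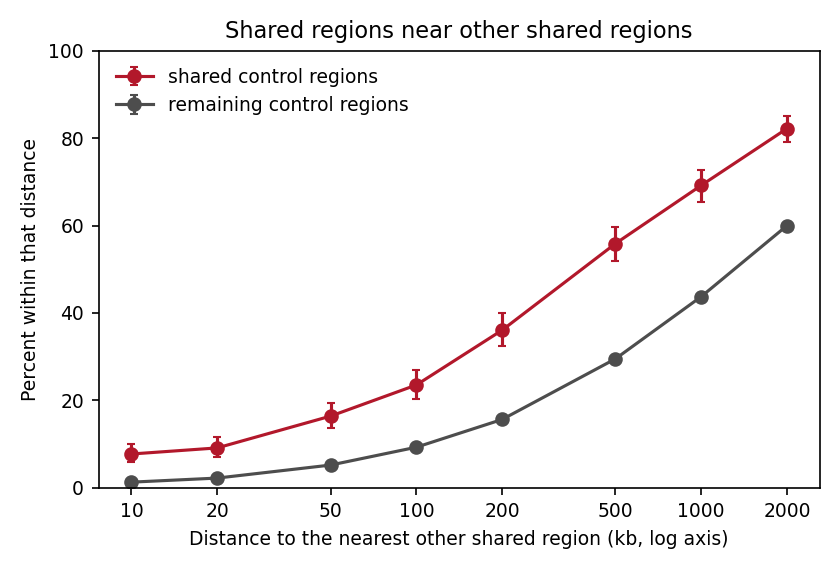
Percent of shared and of remaining control regions (vertical axis, 95% counting intervals) that have another shared region within the distance on the horizontal axis (kb, log axis). The shared regions lie above the remaining ones at each distance, by 23.5% against 9.29% at 100 kb, and the ratio narrows with distance.

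The surroundings of shared regions were dense in regions of each library, a value that moves with the clustering and whose part in it was not tested. Within 500 kb lay a median of 14 other control regions, 16.5 sh1 regions and 17 sh4 regions, against 10, 10 and 10 around the remaining regions. Only regions with their midpoint inside the control region were left out. A hairpin region that overlapped it with its midpoint outside was counted, so the sh1 and sh4 values are tied to the rule. Gene density moved with it too, and its part was not tested either. In windows with fewer than 5 genes 23.8% of shared and 11.4% of remaining regions had another shared region within 100 kb, and in windows with 5 to 9 genes 25.4% and 8.30%. In windows with 10 or more genes the shares were 9.38% (1.98 to 25.02; 3 of 32) and 2.55%.

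Chained by gaps of up to 100 kb, 494 shared regions stood alone and 152 formed 68 groups, of which 55 were pairs. The largest group held 5 shared regions over 166 kb of chromosome 1 (185439001 to 185605200), 121758 bp from IVNS1ABP, where 6 control, 10 sh1 and 9 sh4 regions lay. Those starting at 185462201 and 185476801, 9.4 kb apart, had the same sh4 fold of 1.25544, so they may have met the same sh4 region. The group lies beyond 140 Mb, where overlap with sh4 was more frequent (24.9% of control regions against 14.4% on the rest of the chromosome). Shared regions were not more frequent there (3.67% against 3.95%). The next held 4 over 135 kb of chromosome 1 (82079401 to 82214200), 85469 bp from the adhesion receptor gene ADGRL2. Of the 11 groups of 3, those in protein-coding genes were in VEPH1, LAMA4, SLC35F1 and NCALD, and 2 of the 3 regions of another were in GALNTL6. The others lay outside protein-coding genes, as 241839 bp from CCDC54 and 439953 bp from CITED2. By fixed windows, 450 of the 2478 windows of 1 Mb with a control region held a shared one. The fullest, on chromosome 6 (112000001 to 113000000), held 6 of its 20 control regions, and includes LAMA4 and the tubulin gene TUBE1. Windows with 5 lay on chromosome 1 (185000001 to 186000000, with HMCN1 and RNF2), chromosome 2 (226000001 to 227000000, with IRS1, the insulin receptor substrate gene), chromosome 5 (124000001 to 125000000, with ZNF608) and chromosome 8 (101000001 to 102000000, with NCALD and GRHL2). The window on chromosome 1 held 36 sh4 regions, beside 15 control and 14 sh1 regions.

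KDM2A peaks of the control cells, counted at any FDR up to 0.869, were somewhat sparser in shared regions. Their midpoints numbered 1.80 per 10 kb (1.67 to 1.93; 768 peaks) against 2.05 in the remaining regions (2.02 to 2.08). The density was lower in 5 of 6 width classes, by 1.75 against 2.25 over 12 kb, and it was 1.963 in both sets at over 4 to 6 kb. With peaks of FDR under 0.05, which number 17 in shared and 429 in remaining regions, the intervals overlapped. The density was then 0.0398 (0.0232 to 0.0637) against 0.0456 (0.0414 to 0.0502). The order depended on the reference list. Among sh4 regions, those shared with both other lists held 1.07 times the density of the rest (1.004 to 1.14), and among sh1 regions 0.979 times (0.913 to 1.05). At least 1 KDM2A peak lay in 68.0% of shared and 61.0% of remaining regions, and shared regions are the wider set.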

How the data were processed

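The deposited lists of 4 IP libraries were used. Bowtie 1.1.2, SICER and MACS2, and the build as hg38 and as GRCh38, appear in the submitters' processing notes without a stated role. Per the file headers, the deposited H3K36me2 lists give each region's fold, a linear ratio of IP to background, its p-value and FDR (all under 1e-05) from the authors' peak caller, and a score. The deposited KDM2A list (504724 peaks) gives a fold, p-values, an FDR that reaches 0.869 and a pileup signal. H3K36me2 regions lie on a 200 bp grid counted from 0, and positions are printed counted from 1.

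IP and input reads were recovered from fold and p-value under a Poisson model. Of the recovered values 100% of IP lay within 0.001 and 100% of input within 0.01 of whole numbers. Regions with a p-value listed as 0 (5 in the control, 3 in sh1, 6 in sh4) have none. Fold intervals are exact binomial intervals on both counts, shares carry exact Clopper-Pearson intervals, medians intervals from order statistics and densities Poisson intervals, all at 95%. PCR reads without molecular identifiers are not independent molecules. Upper limits for 0 use 3 counts.

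Genes came from RefSeq GRCh38.p14 (18973 protein-coding on chromosomes 1 to 22), starts and promoter sequences from a RefSeq table covering 15101 of them. Windows of 1 Mb were classed by gene midpoints. Named by rule were the 10 regions with the longest stretch in all 3 lists, the 10 widest and the 10 with the highest smallest fold, regions at the threshold, genes with most shared regions, up to 4 genes per list, and the fullest windows; the text gives a part of these. Genes known in the nervous system or at a fragile site were picked after their values were seen. Some genes are not reported here. Members and lists were chosen with earlier results of these data known. Functions were tested on simulated data. Alternatives varied the overlap, the FDR and fold limits, the reference list and the neighbour distance. Python 3.11.15, pandas 2.3.3 and scipy 1.17.1 were used.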

Additional observations from a re-analysis of the deposited data

How the results depend on the processing

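Values here are the count of shared regions or the ratio of shared to remaining regions. Leaving out chromosome 1 beyond 140 Mb or asking for 1000 bp of overlap kept each of the 8 results within its counting interval, or, for the count, within 1.5 times (620 and 544 regions, against 646). With 50% of the region covered in each hairpin 249 regions remained, and the ratios were 1.045 for width, 0.9998 for fold and 0.979 for KDM2A density. With an FDR under 1e-10 in all 3 lists 13 regions were shared, too few to place the ratios: 1.00 for width, 0.974 for fold, 0.903 for touching genes, 1.103 for gene-poor windows, 0.000 for clustering, 1.38 for KDM2A density and 1.14 for input reads per kb. With folds above the control median in all 3 lists 84 were shared, with ratios of 1.16 for width, 0.996 for fold, 1.33 for gene-poor windows, 0.000 for clustering, 1.003 for KDM2A density and 0.961 for input reads per kb. Under both limits 0 shared regions had another within 100 kb, against 0.190% and 1.39% of the remaining ones, and the interval of the ratio reached 130.2 and 3.09. With sh1 as reference the ratio was 1.07 for gene-poor windows and 0.979 for KDM2A density. With sh4 it was 0.930 for fold, 1.02 for gene-poor windows, 1.07 for KDM2A density and 1.07 for input reads per kb. Clustering was 1.89 at 500 kb and, in an alternative chosen after seeing the data, 2.17 without regions that share a hairpin region. The ratio for touching genes was below 1 in each alternative run, between 0.775 and 0.903, but its interval included 1 under the FDR limit (0.325 to 1.61) and the fold limit (0.572 to 1.07). Where a value moved, the cause was not tested. Depth limits single folds: a shared region with the median of 208 IP reads has a wide counting interval, and a missing call may be a near miss. No paired analysis was possible because each group holds 1 library and no result comes from a test.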

Other observations

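Of the RefSeq table (GRCh38.p14), 3 mature miRNAs lay in a shared region, and they are shown with the seed, bases 2 to 8, in capitals.
hsa-miR-28-3p: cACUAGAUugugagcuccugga
hsa-miR-557: gUUUGCACgggugggccuugucu
hsa-miR-8078: gGUCUAGGcccggugagagacuc
The seeds differ between the 3. The miR-28-3p sequence (chromosome 3, 188688834 to 188688855) lies in the shared region of its host gene LPP, within the 9400 bp called in all 3 libraries. That of miR-557 (chromosome 1, 168375584 to 168375606) lies in a region with folds of 1.43, 1.89 and 1.16 in control, sh1 and sh4, outside its 200 bp called in all 3. That of miR-8078 (chromosome 18, 112266 to 112288) lies in the region over ROCK1P1 near the chromosome end. Among the 1461 hairpins in the table on chromosomes 1 to 22, which include those of MIR557 and MIR8078 but not that of MIR28, shared regions touched 2 in 4.27 Mb and remaining regions 30 in 94.0 Mb.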
